A study of Rattus norvegicus with 53 samples.

Results

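Angpt2 and Mcph1 are neighbouring genes on rat chromosome 16, and they were followed here as 2 of the 32576 genes measured in whole eyes of heterogeneous stock (HS) rats. Both were found by their Ensembl identifiers. Angpt2 (ENSRNOG00000016696) has its deposited start at position 75966352 of chromosome 16 on the Rnor_6.0 build, and Mcph1 (ENSRNOG00000028586) at position 76110553, which puts the starts 144201 bp apart. In RefSeq's annotation of another build, GRCr8, the span of Angpt2 lies within the span of Mcph1. The sources used here do not say whether the reads were counted by strand, so reads from any exons that overlap cannot be told apart.

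HS rats are an outbred population that descends from several inbred strains, and 1 frozen eye per rat was used, with the muscles outside the globe removed. Polyadenylated RNA was sequenced from 53 eyes, of which 51 are analysed, and there was no treatment group. In the wider study some rats had self-administered nicotine, and others were older breeders never exposed to it. The sources used here do not say which of these rats gave the eyes, nor give age or sex per eye. The labels of 11 eyes were corrected by the authors after a comparison with DNA genotypes, and 40 eyes kept their label. By their tag numbers 12 eyes carry other prefixes and 39 carry the most common one; what a prefix stands for is not given.

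Angiopoietin-2, the product of Angpt2, is a secreted ligand of the receptor TEK on endothelial cells. It can block or mimic the action of angiopoietin-1 depending on the setting. In mice, angiopoietin signalling through TEK is needed for Schlemm's canal, the vessel through which aqueous humor leaves the eye. Microcephalin, the product of Mcph1, is a nuclear protein that holds back chromosome condensation and takes part in the DNA damage response, and its loss in humans causes a small brain at birth. The study examined both genes in its genetic mapping of intraocular pressure.

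Both genes were detected in all 51 eyes at low levels. Values are expected counts scaled to 1000000 per eye, written as CPM, and were not divided by transcript length, so the levels of the 2 genes are not compared with each other. Angpt2 ran from 3.61 CPM through a median of 7.40 CPM to 13.4 CPM, a 3.70-fold range, and averaged 7.47 ± 2.19 CPM (SD, n = 51). The middle of its distribution lay between 5.41 CPM (lower quartile) and 9.19 CPM (upper quartile). No eye stood far from the others, since the next to lowest was at 4.03 CPM and the next to highest at 12.1 CPM. Mcph1 ran from 0.408 CPM through a median of 3.27 CPM to 6.85 CPM, and averaged 3.33 ± 1.33 CPM (SD, n = 51). Its quartiles were 2.36 and 4.14 CPM. Here 1 eye, eye 28, stood apart at 0.408 CPM, which rests on 8 counts, and the next eye was at 1.51 CPM. In the same eye Angpt2 was at 8.47 CPM, above its own median.

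**Figure D1:**
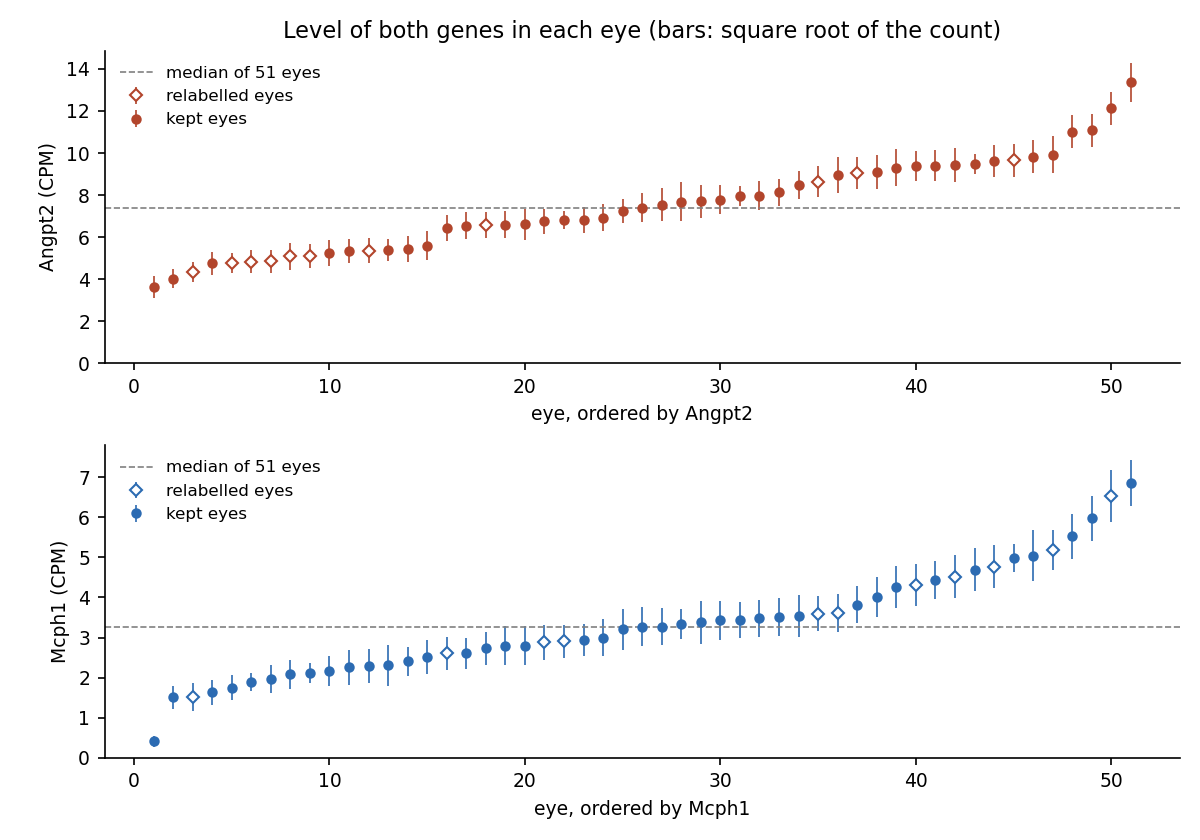
Level in CPM (vertical axes, starting at 0) of Angpt2 (top) and Mcph1 (bottom) in each of 51 eyes, ordered by the level of the gene shown. Open diamonds are the 11 relabelled eyes, filled circles the 40 kept eyes, bars the square root of the expected count on the CPM scale, and the dashed line the median of 7.40 CPM for Angpt2 and 3.27 CPM for Mcph1. Angpt2 climbs without a gap, whereas 1 eye lies at 0.408 CPM for Mcph1.

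The counts behind these values were small. They ran from 48 to 400 for Angpt2, with a median of 113, and from 8 to 210 for Mcph1, with a median of 49. On the log2(CPM + 1) scale, used in all tests below, the SD between eyes was 0.38 for Angpt2 and 0.46 for Mcph1. Counting error alone, taken as the square root of each count, would give an SD of 0.12 and 0.15, which corresponds to 9.91% and 11.1% of the variance. Most of the variation in both genes was therefore larger than counting error. The first 5 principal components of expression held 26.4% of the variance of Angpt2 and 30.9% of that of Mcph1, and 20 components held 56.7% and 75.7%. Over all genes with counts in any eye, 20 components held 71.8% of the variance, on the inverse normal values from which they came.

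Levels were compared between the eyes that the labels set apart, as 4 comparisons in all. Angpt2 ran from 4.33 through a median of 5.10 to 9.66 CPM in relabelled eyes, against 3.61 through 7.69 to 13.4 CPM in kept eyes. The mean was 2.80 ± 0.37 on the log2 scale in relabelled eyes and 3.10 ± 0.36 in kept eyes (SD, n = 11 and 40), a difference of -0.29 (two-sided permutation test, p = 0.0210, adjusted p = 0.0840). The ranges overlapped and the difference did not pass after adjustment. Mcph1 had a median of 3.62 CPM in relabelled eyes and 3.10 CPM in kept eyes, and its log2 means differed by 0.22 (two-sided permutation test, p = 0.155, adjusted p = 0.309). Between the 12 eyes of other tag prefixes and the 39 of the most common one, the log2 means differed by -0.07 for Angpt2 (permutation adjusted p = 0.568) and by 0.15 for Mcph1 (permutation adjusted p = 0.428).

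Neighbouring in the genome, the genes did not vary together across eyes. Pearson's r between them was -0.03 (two-sided permutation test, p = 0.857; 95% interval -0.30 to 0.25) and Spearman's rho was -0.07 (permutation p = 0.601, n = 51). Measured against the medians of both genes, 11 eyes were above both, 12 below both, 13 above for Angpt2 alone and 13 above for Mcph1 alone. The eye with the most Angpt2, at 13.4 CPM, had 4.26 CPM of Mcph1, and the eye with the least, at 3.61 CPM, had 3.54 CPM of Mcph1. Both of these eyes were above the Mcph1 median of 3.27 CPM. The interval leaves room for a weak relation in either direction, and counting error alone would cap r at 0.89.

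The value changed little with single eyes. Leaving out each eye in turn gave an r of -0.11 to 0.03, and with the 2 eyes most distant from the Angpt2 median left out it was -0.05. With the eyes split by tag prefix the estimates parted. The 12 eyes of other prefixes pool several prefixes, and their r of -0.51 (95% interval -0.84 to 0.09) is not an estimate within a single prefix. In the 39 eyes of the most common prefix r was 0.13 (95% interval -0.20 to 0.43). The difference of these r values, coded other minus most common, was -0.64 (two-sided permutation test over 10000 permutations of the prefix, p = 0.0774), so it did not pass. In the values as deposited, which carry the depth of each library, r was 0.34 (permutation p = 0.0152).

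**Figure D2:**
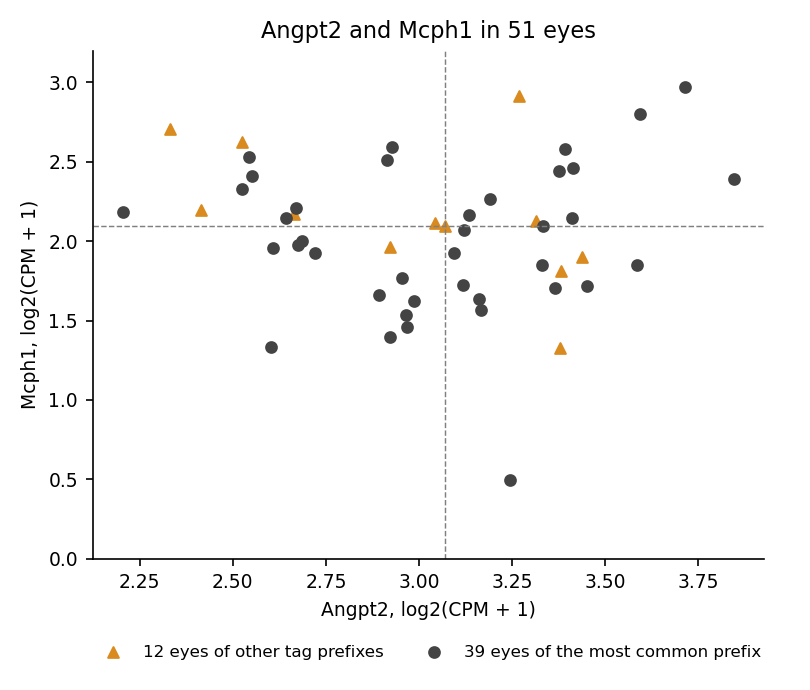
Mcph1 (vertical axis) against Angpt2 (horizontal axis), both as log2(CPM + 1), in 51 eyes. Triangles are the 12 eyes of other tag prefixes, circles the 39 eyes of the most common prefix, and dashed lines mark the medians. The eyes spread evenly around the medians, with 11 above both, 12 below both and 13 on each of the mixed sides, and r is -0.03.

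Both genes were then set against measures of depth and RNA makeup, 10 relations in all. Depth was the sum of expected counts per eye, from 9109084 to 42146827 with a median of 16193478. Its log2 had r = 0.09 with Angpt2 (permutation p = 0.548, adjusted p = 0.783; rho = 0.08, permutation p = 0.566, adjusted p = 0.707) and r = 0.04 with Mcph1 (permutation p = 0.761, adjusted p = 0.843; rho = 0.11, permutation p = 0.439, adjusted p = 0.707). The strongest of the 10 was that of Mcph1 with the summed level of the 37 genes of the mitochondrial genome, r = -0.30 (permutation p = 0.0327, adjusted p = 0.327). Spearman's rho was -0.28 (permutation p = 0.0450, adjusted p = 0.450). With the 2 most extreme eyes of the mitochondrial level left out r was -0.23, and it was -0.10 in the 12 eyes of other prefixes and -0.32 in the 39. The relation did not pass after adjustment. For Angpt2 the same relation had r = -0.09 (permutation adjusted p = 0.783) and rho = -0.09 (permutation adjusted p = 0.707).

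Markers of other cell types could be followed only where a gene had a name. The globin genes that could be named are Hba-a3 and Hbb, which mark blood, and the pigment genes are Tyr, the first enzyme of melanin synthesis, and Rab38, which serves the transport of melanin enzymes. The summed level of the 2 globin genes ran from 3.71 to 90.2 CPM and had r = 0.03 with Angpt2 and 0.17 with Mcph1. For the 2 pigment genes r was 0.14 with Angpt2 and -0.10 with Mcph1. Guca1b, a guanylate cyclase activator of photoreceptors, had r = 0.05 with Angpt2 and 0.17 with Mcph1. These 6 relations had permutation adjusted p-values of 0.783 to 0.843 for r, and rho gave 0.631 to 0.906. In the 12 eyes of other prefixes the pigment genes had r = -0.51 with Angpt2, and in the 39 eyes r = 0.36, a contrast that was not tested. No endothelial, pericyte, horizontal cell, lens or muscle marker could be named. The shares of these cells, including the vessel cells where Angpt2 is known to be made, were therefore not tested. In bulk RNA fewer cells of a type and less RNA per cell cannot be told apart.

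Across the transcriptome, genes that vary with Angpt2 were sought by the slope of each gene's level on that of Angpt2. Of 13843 genes whose median reached 1 CPM, 143 were called at a limma adjusted p under 0.05, with the Benjamini-Hochberg adjustment over all of them. Of these 135 rose with Angpt2 (0.975% of genes tested) and 8 fell (0.0578%), and 2695 genes had an unadjusted p under 0.05. The direction of the calls depended on scaling, since with median-of-ratios factors 433 genes rose and 503 fell. The calls were fragile in other ways too. None passed without eye 9, the eye with the least Angpt2, and none without eye 11 (1837 and 2414 genes at an unadjusted p under 0.05). Nor did any pass without the 11 relabelled eyes, on ranks, or with 5 or 20 components as covariates. The 39 eyes of the most common prefix alone gave none either. At an unadjusted p under 0.05 there were still 2835 genes on ranks and 2732 in the 39 eyes. The smallest limma adjusted p-values there were 0.0554 and 0.0858. Without the relabelled eyes 1938 genes had an unadjusted p under 0.05, and with 5 and 20 components 952 and 809. Leaving out eyes also lowers the power of the test.

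Leaving out any 1 of 23 eyes moved the count by more than 1.5 times. It fell to between 4 and 95 without eyes 12, 20, 32, 38, 39, 43 or 50, and rose to between 221 and 463 without eyes 3, 6, 8, 14, 19, 23, 25, 27, 30, 34, 35, 40, 48 or 51. The genes called with Angpt2 are accordingly given as a description of these 51 eyes. The 135 that rose had r of 0.46 to 0.62 with Angpt2, with a median of 0.50, which became 0.44 when the 2 eyes most distant from the Angpt2 median (eyes 3 and 9) were left out, 0.28 after 5 components and 0.21 after 20. They varied together, with a median r of 0.57 among themselves, but selection on Angpt2 in these same eyes favours such values. Their r with Mcph1 ran from -0.35 to 0.21, with a median of -0.08. Over all 13843 genes the median r with Angpt2 was 0.01, and 95% of genes lay between -0.35 and 0.42.

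**Figure D3:**
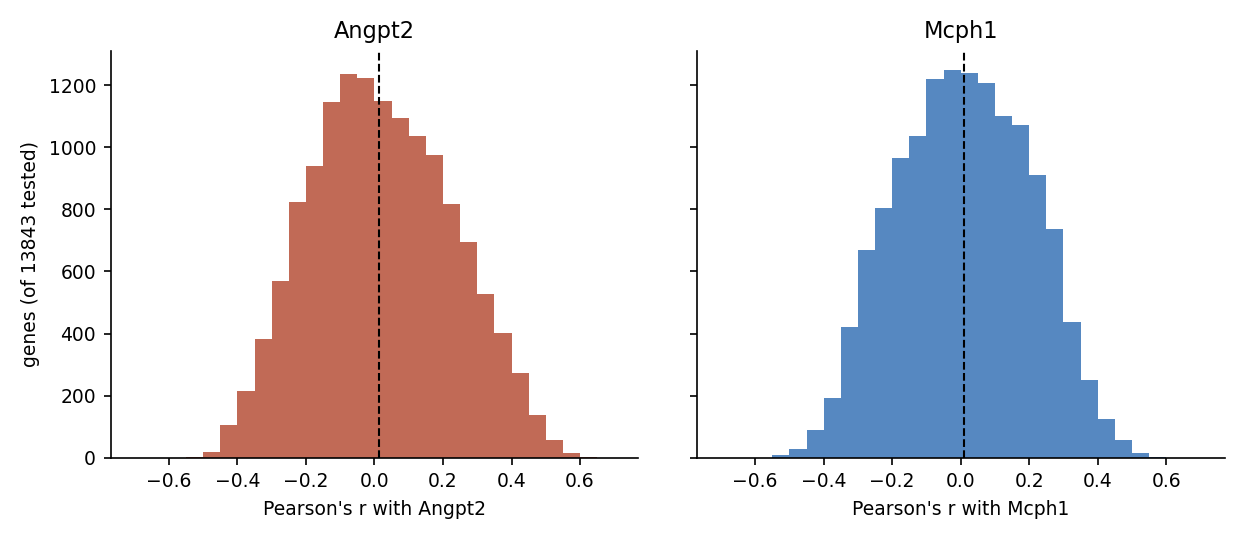
Number of genes (vertical axis, of 13843 tested) by Pearson's r of their log2(CPM + 1) with Angpt2 (left) and Mcph1 (right) over 51 eyes. Dashed lines mark the medians, both 0.01. Highest and lowest values are 0.62 and -0.54 for Angpt2 and 0.68 and -0.53 for Mcph1.

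Gene names were at hand for 706 of the genes tested against each gene, nearly all from the study's list of genes with a cis-eQTL in these same eyes. They are not a fair sample of the transcriptome. Of the 706 named genes 6 rose with Angpt2 and 0 fell, where 0.975% of all genes tested rose and 0.0578% fell. At an unadjusted p under 0.05, 101 named genes had a positive slope and 48 a negative one. Together that is 21.1% of named genes, against 19.5% of all genes tested. The closest was Tmem9, which encodes a transmembrane protein of lysosomes, at 41.9 through a median of 59.8 to 88.5 CPM. It rose by 0.33 ± 0.08 log2 units for each log2 unit of Angpt2 (slope ± SE; limma adjusted p = 0.0287), with r = 0.53 and rho = 0.54. Its r was 0.54 without eyes 3 and 9, and 0.53 in both the 12 and the 39 eyes. It was 0.33 after 5 components and 0.15 after 20.

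Pcyt2, an enzyme in the synthesis of phosphatidylethanolamine, ran from 23.7 through 35.7 to 63.1 CPM. Its slope on Angpt2 was 0.38 ± 0.09 (limma adjusted p = 0.0287), with r = 0.53. Without the 2 eyes r was 0.52, and it was 0.28 after 5 components and 0.34 after 20. Jpt1, a microtubule-associated protein gene, ran from 24.4 through 44.3 to 67.2 CPM. It had a slope of 0.48 ± 0.11 (limma adjusted p = 0.0287), with r = 0.52. Without the 2 eyes its r was 0.45, and it was 0.19 after 5 components and 0.18 after 20. The slopes of Tmem9, Pcyt2 and Jpt1 were each below 1, so the fitted change of the gene was smaller than that of Angpt2.

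Fuz, a planar cell polarity effector needed for cilia, had a slope of 0.53 ± 0.13 on Angpt2 (limma adjusted p = 0.0373; r = 0.49). Its r was 0.35 without the 2 eyes and 0.34 after either 5 or 20 components. Gpx3, the secreted glutathione peroxidase, ran from 29.1 through 53.5 to 92.7 CPM, with a slope of 0.58 ± 0.15 (limma adjusted p = 0.0375; r = 0.48). Its r with Angpt2 was 0.26 in the 12 eyes of other prefixes and 0.54 in the 39. Atp5mc2, which encodes the ring subunit of mitochondrial ATP synthase, ran from 53.9 through 104 to 165 CPM and had a slope of 0.40 ± 0.11 (limma adjusted p = 0.0420; r = 0.48). After 20 components its r was 0.01.

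The next 4 named genes by r did not pass. They were Anapc13, a subunit of the anaphase-promoting complex (r = 0.46), and Ldhb, a lactate dehydrogenase subunit (r = 0.46). Il11ra1, a cytokine receptor gene, and Adrm1, a ubiquitin receptor of the proteasome, each had r = 0.45. Their limma adjusted p-values with Angpt2 were 0.0502 to 0.0587, and with median-of-ratios scaling all 4 passed at 0.0182 to 0.0344. Il11ra1 kept an r of 0.42 after 5 components and 0.26 after 20, while that of Adrm1 went to -0.03 after 20. The lowest r among named genes were -0.42 for Myo9a, an unconventional myosin, -0.41 for Stxbp4, a syntaxin-binding protein, and -0.41 for Cpeb4, an RNA-binding protein of translation control. Chrnb3, a nicotinic acetylcholine receptor subunit that also lies on chromosome 16, and Trim33, a ubiquitin ligase, both had r = -0.40. None of these 5 passed (limma adjusted p = 0.0652 to 0.0836), but all 5 did with median-of-ratios scaling, with limma adjusted p-values of 0.0157 to 0.0282. Cpeb4 and Stxbp4 had r = -0.17 and -0.28 after 5 components. After 20 they had -0.39 and -0.34, against -0.08, -0.11 and -0.06 for Myo9a, Chrnb3 and Trim33.

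**Figure D4:**
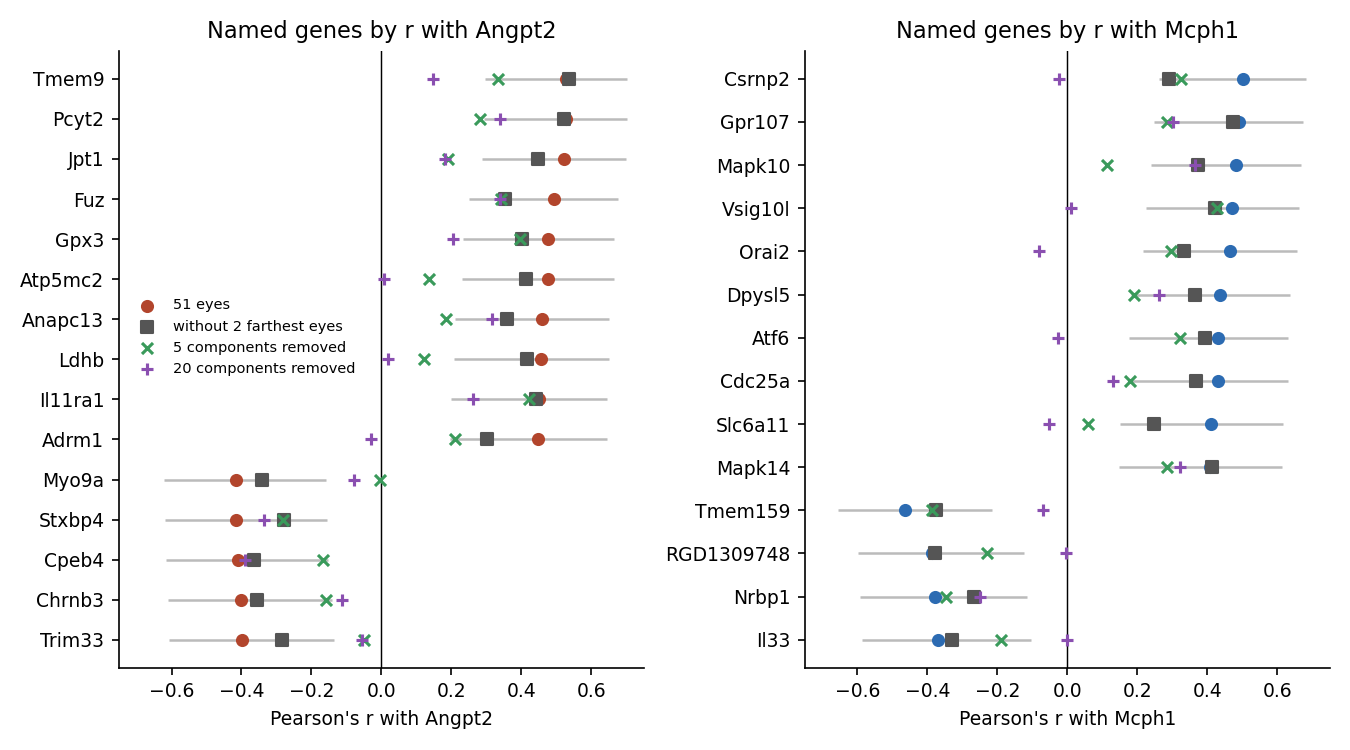
Pearson's r (horizontal axes) of the 10 named genes with the highest r and those with the lowest, 5 with Angpt2 (left) and 4 with Mcph1 (right). Circles are all 51 eyes with the 95% interval as a grey line, squares leave out the 2 eyes most distant from the median of the gene on the axis, crosses and plus signs have 5 and 20 expression components removed. For Angpt2 the values of Tmem9 and Pcyt2 without the 2 eyes are 0.54 and 0.52, and most plus signs sit nearer to 0 than the circles.

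Of the called genes without a name, the one closest to Angpt2 was ENSRNOG00000016778 on chromosome 4, with r = 0.62 and rho = 0.54. It ran from 35.5 through 67.6 to 91.0 CPM, and its r was 0.54 without the 2 eyes and 0.09 after 20 components. The one that fell most closely with Angpt2 was ENSRNOG00000052583 on chromosome 3, with r = -0.54 and rho = -0.46, and its r was -0.30 after 20 components. Genes called with Angpt2 had a median level of 34.8 CPM, against 22.8 CPM for all genes tested.

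Fewer genes passed with Mcph1. Of 13843 genes 5 rose (0.0361%) and 0 fell (0%) in limma's moderated test, and 2286 had an unadjusted p under 0.05. These 5 lay on 5 chromosomes, none of them chromosome 16, and had median levels of 10.3 to 80.2 CPM. Their r with Mcph1 was 0.56 to 0.68 and their r with Angpt2 was -0.16 to 0.02. Among themselves they had r of 0.50 to 0.71, which selection on Mcph1 in these same eyes also favours. The closest was ENSRNOG00000008915 on chromosome 6, at 7.65 through 20.9 to 31.2 CPM, with r = 0.68 and rho = 0.60 (slope 0.50 ± 0.08, limma adjusted p = 0.00105). Its r was 0.77 in the 39 eyes of the most common prefix, 0.12 in the 12 others and 0.46 after 20 components.

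The calls with Mcph1 rested in large part on eye 28, the one with 8 counts. Without it 0 genes passed in limma (2757 at an unadjusted p under 0.05), and r of the 5 genes was 0.42 to 0.56. The count was 1 to 3 without eyes 4, 14, 39, 41, 44 or 50, and 22 without eye 45. It was also 0 on ranks and with 5 or 20 components. In the closest gene, r was 0.53 without eye 28 and the eye at the other end, eye 39.

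No named gene passed with Mcph1 in limma, and 85 of 706 had an unadjusted p under 0.05 (12.0%, against 16.5% of all genes tested). The 10 with the highest r are listed as values only, and their limma adjusted p-values were 0.0926 to 0.144. Csrnp2, a nuclear protein gene, had r = 0.50, ran from 9.49 through 22.5 to 32.8 CPM, and had r = 0.29 when eyes 28 and 39, the most distant in Mcph1, were left out. Gpr107, a membrane receptor gene, had r = 0.49 and kept 0.47 without them. The values that followed were 0.48 for Mapk10, a kinase of the JNK family, 0.47 for Vsig10l, an immunoglobulin-domain protein gene, 0.46 for Orai2, a calcium channel subunit, and 0.44 for Dpysl5, a neuronal protein of axon guidance. Atf6, a sensor of stress in the endoplasmic reticulum, and Cdc25a, a phosphatase that drives the cell cycle, both had r = 0.43. Slc6a11, a GABA transporter, and Mapk14, a stress-activated kinase, both had r = 0.41. Mapk10 had r = 0.11 after 5 components and 0.37 after 20, and Mapk14 had 0.28 and 0.32. After 20 components Csrnp2, Vsig10l, Orai2, Atf6 and Slc6a11 lay between -0.08 and 0.01.

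At the other end, Tmem159, a gene of lipid droplets, had r = -0.46 with Mcph1 and ranged from 0 to 10.4 CPM. The others were RGD1309748, whose function is not described here (r = -0.39), Nrbp1, an adaptor protein gene (r = -0.38), and the cytokine gene Il33 (r = -0.37). The limma adjusted p-values of these 4 were 0.0967 to 0.176.

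Whether a gene followed one of the pair more than the other was tested as the difference of both slopes in a joint fit, with each level set to an SD of 1. Of 13842 genes 231 passed in limma's moderated test, 133 with the slope on Angpt2 above that on Mcph1 (0.961%) and 98 below it (0.708%), and 2765 had an unadjusted p under 0.05. The balance depended on scaling, with 269 above and 487 below under median-of-ratios factors, and 731 above and 24 below in the values as deposited. In all 231 the slopes had opposite signs, which selection for a large difference favours. A slope could still be near 0, as in ENSRNOG00000008915 with -0.007 on Angpt2 and 0.23 on Mcph1. Of the 143 genes called with Angpt2, 62 also passed here, and so did 4 of the 5 called with Mcph1. A gene called with one of the pair was thus not always shown to differ from the other. This count fell to 0 when the 2 most distant eyes in Angpt2 were left out, without the relabelled eyes, on ranks and with components, and was 317 in the 39 eyes of the most common prefix.

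Among 705 named genes 9 passed this test, 5 above and 4 below, against 0.961% above and 0.708% below of all 13842 genes. The 5 with the smallest p all had an adjusted p of 0.0465. Gpx3 had a slope of 0.22 on Angpt2 and -0.10 on Mcph1, a difference of 0.32 ± 0.08 (SE). Atp5mc2 had 0.15 and -0.07, a difference of 0.22 ± 0.05. Mettl7a, a methyltransferase-like gene, had 0.11 and -0.09. St3gal1, a sialyltransferase at 251 through 388 to 741 CPM, went the other way with -0.12 on Angpt2 and 0.11 on Mcph1, a difference of -0.23 ± 0.06. Cpeb4 had -0.11 and 0.07. Tmem9, Pcyt2 and Jpt1, called with Angpt2 alone, did not pass here (limma adjusted p = 0.0617 to 0.0868).

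The pathways of both genes could be followed only in small part. Of the symbols in 28 lists of pathways and cell types 25 could be named, and beside the pair itself 21 were tested. Of these 21, 0 passed with Angpt2 and 0 with Mcph1 in limma, and 2 had an unadjusted p under 0.05 with each. That is 9.52% of the listed genes with each, against 19.5% of all genes tested with Angpt2 and 16.5% with Mcph1. In the angiopoietin list 1 gene other than Angpt2 could be named, Grb2, an adaptor that binds active receptor kinases including TEK. It ran from 76.9 through 99.5 to 160 CPM, with r = 0.25 with Angpt2 (limma adjusted p = 0.316) and 0.35 with Mcph1 (limma adjusted p = 0.219). Vegfb, a vascular growth factor gene, had r = 0.20 with Angpt2 and 0.14 with Mcph1.

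Low oxygen is known to induce Angpt2, and 4 genes of the hypoxia list could be named. Adm, which encodes adrenomedullin, had r = 0.23 with Angpt2, Eno1, a glycolytic enzyme, 0.24, and Ddit4, an inhibitor of mTORC1, 0.27. Ndrg1 went the other way at -0.22. The median of the 4 was 0.23, against 0.12 over the 21 listed genes tested, of which 16 had a positive r, and 0.01 over all genes. Of the 4, 0 passed (limma adjusted p = 0.260 to 0.379). With Mcph1 the values of Adm, Eno1, Ddit4 and Ndrg1 were 0.38, -0.04, -0.05 and -0.15. After 20 components Adm, Eno1, Ddit4 and Ndrg1 had r of 0.05, -0.28, -0.13 and -0.15 with Angpt2, so the signs of Eno1 and Ddit4 turned.

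On the side of Mcph1, Knl1, a kinetochore scaffold whose loss also causes microcephaly in humans, was the only other gene of the microcephaly list with a name. It ran from 0 through 1.51 to 6.87 CPM, with r = -0.18 with both Mcph1 (limma adjusted p = 0.506) and Angpt2 (limma adjusted p = 0.466). Of the DNA damage genes, Atm, the kinase that starts the response to double-strand breaks, had r = 0.11 with Mcph1 and -0.28 with Angpt2. H2ax, the histone it marks, had r = 0.01 with Mcph1 and 0.21 with Angpt2. No condensin gene could be named. Serpinf1, an inhibitor of vessel growth made by the retinal pigment epithelium, had r = 0.29 with Angpt2 and -0.19 with Mcph1 (limma adjusted p = 0.215 and 0.477).

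Around the pair on chromosome 16, 43 other deposited gene starts lie within 1 Mb of either start. Of these 33 were at 0 in every eye, 6 were above 0 in at most 3 eyes, and 4 were above 0 in more, so most of the surrounding starts had no counts in these eyes. A gene at 75855745 on Rnor_6.0, the closest of those tested, ran from 37.8 through 57.5 to 87.9 CPM. It had r = -0.29 with Angpt2 (limma adjusted p = 0.237) and 0.04 with Mcph1 (limma adjusted p = 0.915). A gene at 75309176 ran from 0.493 through 4.07 to 11.8 CPM, with r = 0.23 with Angpt2 (limma adjusted p = 0.354) and -0.43 with Mcph1 (limma adjusted p = 0.107). The slopes of the gene at 75309176 differed, higher on Angpt2 by 0.45 (limma adjusted p = 0.0465), in a test with 0 calls when the 2 most distant eyes were left out. Its r with Mcph1 was -0.34 without eyes 28 and 39 and -0.19 after 20 components. The files give no name for either gene.

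**Figure D5:**
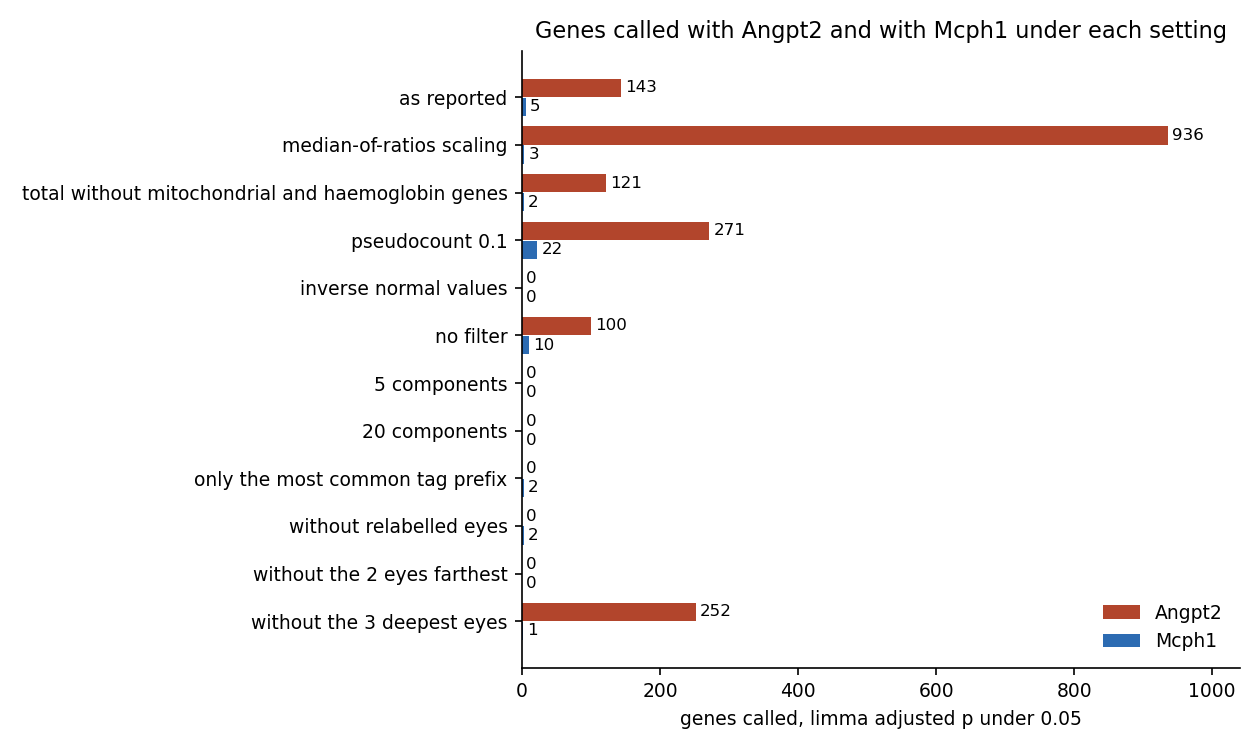
Genes called at a limma adjusted p under 0.05 (horizontal axis, starting at 0) with Angpt2 (upper bar) and Mcph1 (lower bar) under each setting. Values as deposited, with 11331 and 9044 genes, are left off the axis. The count for Angpt2 is 143 as reported, 936 with median-of-ratios scaling and 0 under 6 settings; that for Mcph1 is never above 22.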

How the data were processed

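Whole-eye RNA of 53 rats was sequenced as paired-end reads, aligned by the authors to Rnor_6.0 with STAR in 2 passes, matched to DNA genotypes with GATK ASEReadCounter and quantified with RSEM; the sources used here name neither versions nor annotation. For 51 eyes the authors deposited log2(expected count + 1). The scale was read from the values: 89.8% of those between 0.5 and 50, with the log2 undone, lay within 0.01 of a whole number. Expected counts were scaled to 1000000 per eye and 1 CPM was added before log2. Totals ran from 9109084 to 42146827, and 3 eyes had 34999539 or more, against at most 23740267 in the others.

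Slopes were tested with limma 3.58.1 (R 4.3.3; prior variance with a trend) over all genes whose median reached 1 CPM. Correlations used 100000 permutations in Python 3.11.15 with numpy 2.4.6, scipy 1.17.1 and pandas 2.3.3. They treat eyes as independent, and relatedness among the rats was not used. Intervals of r are by Fisher's transformation. Principal components came from inverse normal values. In data simulated for Angpt2 over 13843 genes, 100 of 100 genes with a true r of 0.7 were called. So were 60 of 100 with a true r of -0.5, with 6 false calls. For Mcph1 the counts were 100, 56 and 9. The noise of each simulated gene was drawn independently, whereas the measured genes vary together. The false calls therefore do not say how many to expect in the measured data.

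Names came from start positions: 778 genes of the study's cis-eQTL list and 5 of its locus table, within 500 bp. Named are the 10 highest and 5 lowest r per gene, the 5 smallest p of the slope difference, the tested genes within 1 Mb, and the members of the angiopoietin, microcephaly and condensin lists; other listed genes were chosen after their values were seen. Of the genes with the lowest r with Mcph1, 1 is not reported here. The pair and all lists were chosen with earlier results of these data known. Alternatives covered scaling, pseudocount, filter, ranks, components and eyes left out.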

Additional observations from a re-analysis of the deposited data

How the results depend on the processing

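The r between Angpt2 and Mcph1 was positive in some settings and passed in 1 of them. It was 0.10 after 5 components, 0.037 after 20, 0.13 in the 39 eyes of the most common prefix, 0.015 without relabelled eyes and 0.34 in the values as deposited (permutation p = 0.0152), and -0.11 to 0.030 with each eye left out in turn. Counts of genes called with Angpt2 (143) were 936 with median-of-ratios scaling, 11331 in the values as deposited, 271 with a pseudocount of 0.1 CPM and 252 without the 3 deepest eyes, a setting chosen after seeing the data. They were 0 on ranks, with 5 or 20 components, in the 39 eyes, without relabelled eyes and without the 2 farthest eyes, and 0 to 463 with each eye left out, also chosen after seeing the data. At an unadjusted p under 0.05, limma gave 2835 genes on ranks and 2732 in the 39 eyes, beside 2695 as reported. It gave 1986 without the 2 farthest eyes, 1938 without relabelled eyes, and 952 and 809 with 5 and 20 components. Counts with Mcph1 (5) were 3, 9044, 22 and 1 in the 4 settings first named for Angpt2. They were 2 with a total free of mitochondrial and globin genes, 10 with no filter, 2 in the 39 eyes, 2 without relabelled eyes, 0 on ranks, with components and without the 2 farthest eyes (714 to 2330 at an unadjusted p under 0.05), and 0 to 22 with each eye left out. Counts of slope differences (231) were 756 with median-of-ratios scaling, 755 as deposited, 12 with no filter and 0 on ranks, with components, without relabelled eyes, without the 2 farthest and without the 3 deepest eyes (757 to 3051 at an unadjusted p under 0.05). The cause of these changes was not tested.

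For the 6 named genes called with Angpt2, 0 of 72 refits turned the sign and 38 lost the call. For the 23 that were not called, 13 of 276 refits turned it and 28 gained a call. In the values as deposited the slope became 0.14 for Myo9a, 0.12 for Stxbp4, 0.29 for Cpeb4, 0.24 for Chrnb3 and 0.20 for Trim33 with Angpt2, and 0.11 for RGD1309748, 0.15 for Nrbp1 and 0.049 for Il33 with Mcph1. After 20 components it became -0.0098 for Adrm1 with Angpt2, and with Mcph1 -0.013 for Csrnp2, -0.052 for Orai2, -0.011 for Atf6 and -0.025 for Slc6a11. No paired analysis was possible because there was a single group of eyes with no treatment.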

Other observations

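Of the 143 genes called with Angpt2, 13 lie on its own chromosome, 3.24% of the 401 genes tested there. The next highest share was 1.90%, on chromosome 12, and over all 13843 genes 0.975% rose and 0.0578% fell. Of the 13 on chromosome 16, 12 are far from Angpt2. The nearest starts 1.18 Mb from Angpt2 and falls with it (r = -0.47). The other 12 rise with it, and 11 of them start between 18860086 and 21275311 on chromosome 16 of Rnor_6.0, 54.7 to 57.1 Mb from Angpt2, with r of 0.47 to 0.53. Between 18 and 22 Mb, a window chosen after seeing these calls, 96 genes were tested. Of the 96, 74 had a positive r with Angpt2. The median r of the 96 was 0.20, against -0.05 for the other 305 genes of the chromosome. These values include the 11 called genes around which the window was set, so they partly restate that choice. The median was 0.21 without eyes 3 and 9, the most distant in Angpt2, and 0.06 after 20 components, and with Mcph1 it was -0.02. These genes have no name in the files, and the calls share the dependence on single eyes given above.

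All 15 genes of the mitochondrial genome that were tested had a negative r with both genes, at -0.27 to -0.01 with Angpt2 and -0.32 to -0.13 with Mcph1, and none passed in limma. They share 1 genome and the same libraries, so they are not independent.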
